A study of Mus musculus with 6 samples.

Results

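Messenger RNA was compared in cultured mouse dermal fibroblasts, skin cells that make collagen and other matrix, between 1 h and 2 h of treatment with interleukin-1 (IL-1). The comparison used 4 of the 6 arrays of the study, those of 1 h and 2 h, and all 20873 genes measured on them. The fibroblasts were from C57BL/6 mice, with no allele or other agent named in the labels, and were grown in serum-containing medium. They received IL-1 at 20 ng/ml for 1 or 2 h, and untreated cells (0 h) gave the control RNA. The form of IL-1, the age of the mice and the number of animals or cultures are not given in the sources used here. On each 2-colour array one dye labelled treated RNA and the other dye labelled untreated RNA. Both time points were hybridised on 2 arrays with the dyes exchanged, so that a time point is 1 sample measured in 2 dye orientations.

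The quantity reported is a change, the log2 ratio of treated over untreated signal at 2 h minus the same ratio at 1 h. It was taken within each orientation and averaged over both, so that a dye effect of a probe that is the same on the arrays of both times drops out. The error given after ± is how far each orientation lies from the mean of both, a technical error only. A gene was called higher or lower where the change was at least 1.5-fold (0.58 on the log2 scale) in each orientation. With 1 sample per time point no test of a gene was possible, and a call describes these RNAs. In RNA of a whole culture, fewer cells that express a gene and less RNA of it per cell cannot be told apart.

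IL-1 binds its receptor and, through the adaptor Myd88 and Irak kinases, activates NF-kB and the MAP kinases. The first genes transcribed are immediate early genes, which need no new protein and encode transcription factors, together with inhibitors of NF-kB and chemokines. Many of their mRNAs carry AU-rich elements and decay fast, so that such a transcript can rise and be lost again while mRNAs of later or more stable genes go on accumulating.

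All 12 fibroblast markers were well above background on the 4 arrays in the treated channel. They include the collagens Col1a1 and Col1a2, the surface protein Thy1 and the intermediate filament gene Vim. Lum (7.54) and Fap (7.35) had the lowest log2 signals among them. Many markers of other cells also passed, from 3 of 7 for melanocytes to 7 of 9 for macrophages and dendritic cells, 8 of 10 for keratinocytes and 6 of 6 for mural cells. Passing background therefore does not set fibroblasts apart. The markers of other skin cells had low median signals, from 6.12 (log2 signal) for melanocytes to 7.21 for Schwann cells, against 12.9 for fibroblasts, apart from mural cells at 9.22. Of the 6 mural markers Cnn1 (13.6), Cspg4 (11.7) and Mcam (10.8) were high and Myh11 (7.61), Rgs5 (6.40) and Des (6.29) were lower. Single markers of other types also stood above their list, such as Lyz2 of macrophages (11.6) and Cd3e of T cells (8.71). Changes of the markers of all these cell types lay between -0.19 and 0.30, and 0 were called. The 14 measured reference genes, such as Actb and Ppia, lay between -0.07 and 0.12. Over all genes the median distance between either orientation and the average was 0.035, and its 95th percentile was 0.12. The change correlated at 0.38 between orientations across genes, which are not independent replicates. The number of arrays limits the precision.

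From 1 h to 2 h of IL-1 more transcripts stood lower than higher at this size. The largest differences belonged to transcription factors, Nr4a1, Irf1, Klf10 and Egr2, and to the NF-kB regulators Nfkbiz and Tnfaip3, all of them lower at 2 h. Irf1, Klf10 and Egr2 stood within 0.3 of the untreated level at 2 h, whereas the NF-kB regulators and the chemokines Cxcl1 and Cxcl2 were lower but still above it. The genes that stood higher at 2 h were the neutrophil chemokine Cxcl5, the transcription factor Cebpd, the secreted lipase inhibitor Angptl4, Parp14 and Slco3a1. In all, 19 genes were lower (0.091% of the genes measured) and 5 were higher (0.024%). At 2-fold the counts were 6 lower (0.0287%) and 0 higher (0.0%), and 0 genes passed 1.5-fold in opposite directions in the 2 orientations. The split depended on the processing, since 70 genes were lower and 56 higher at 1.5-fold in the signals processed by the scanner software. At a smaller size of 1.25-fold (0.32), chosen after the data were seen, 64 genes were lower (0.307%) and 37 were higher (0.177%).

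**Figure D1:**
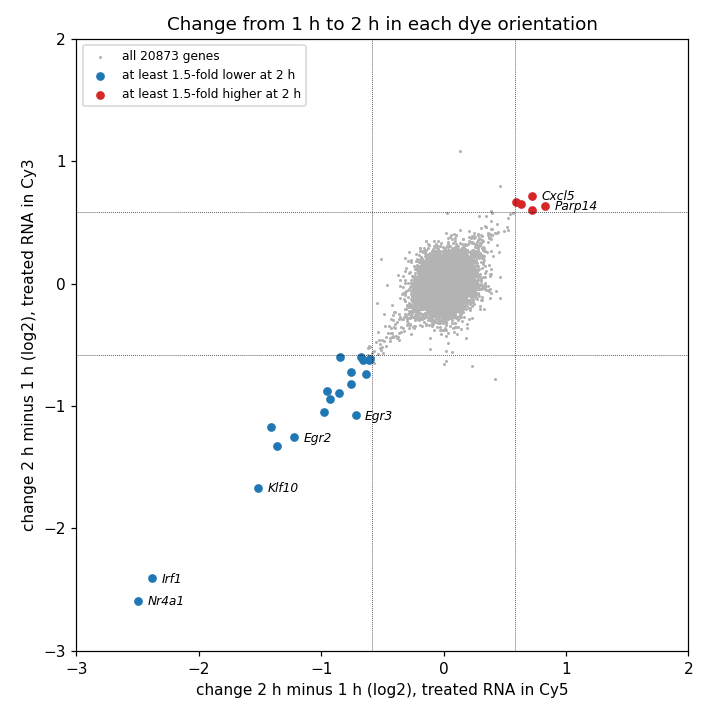
Change from 1 h to 2 h of IL-1 (log2) for each of 20873 genes, with treated RNA in Cy5 on the x axis and in Cy3 on the y axis. Dotted lines mark 1.5-fold; the 19 lower genes (blue) reach -2.49 and -2.59 for Nr4a1, and the 5 higher genes (red) stay below 2-fold on average.

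The orphan nuclear receptor Nr4a1 (Nur77) had the largest change. Its log2 ratios at 1 h were 1.67 and 1.61, and at 2 h they were -0.82 and -0.98. Both 2 h arrays lay below both 1 h arrays and below the untreated level, a change of -2.54 ± 0.048, or 5.82-fold lower. Irf1, a transcription factor of interferon and inflammatory responses, was at 2.21 on both 1 h arrays and at -0.17 and -0.20 at 2 h. Its change was -2.39 ± 0.012, or 5.26-fold, and a dimmer Irf1 probe gave -1.18. The zinc finger factor Klf10, known as a TGF-beta-inducible gene, was at 1.37 and 1.42 at 1 h and at -0.15 and -0.25 at 2 h, a change of -1.59 ± 0.075 (3.01-fold). For these 3 genes the 2 h values thus lay near or below those of untreated cells.

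The immediate early factors held 8 of the 19 lower genes. Of 34 measured members, 8 were lower and 0 higher by the 1.5-fold rule, where 0.091% of all genes were lower. The change was below 0 in both orientations for 27 of the 34 and above 0 in both for 1, with a median of -0.26. Over all genes the median change was 0, with 5777 of 20873 below 0 in both orientations and 5760 above. At 1.25-fold 15 of the 34 were lower and 0 higher. The list was drawn up with earlier results of these data known, so its count is a description.

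Values are given by family. Of the EGR zinc finger factors, Egr2 was at 1.31 and 1.26 at 1 h and at 0.09 and 0.00 at 2 h, a change of -1.24 ± 0.017. Egr3 was at 0.93 and 1.08 at 1 h and at 0.21 and 0.01 at 2 h, a change of -0.90 ± 0.18. The 2 Egr3 probes disagreed, since the other one gave 0.04. Both were dim, with mean log2 signals of 6.52 for the probe used and 6.33 for the other. Egr4 changed by -0.56, just outside 1.5-fold, and Egr1, the factor for which the family is named, by -0.44. Egr1 differed from the others in its starting point, at 0.02 and -0.23 at 1 h and -0.42 and -0.67 at 2 h, so that it was not above the untreated level at either time.

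Of the AP-1 subunits, Junb was at 1.36 and 1.30 at 1 h and at 0.40 and 0.42 at 2 h. Both probes of Junb were lower, at -0.92 ± 0.037 and -0.85. Jun was at 0.61 and 0.51 at 1 h and at -0.01 on both arrays at 2 h, a change of -0.57 that passed only the smaller size. Fosl1 was lower by the smaller size as well (-0.43), and Fosl2 was at -0.30, Jund at -0.01 and Fosb at -0.01. Fos, the partner of Jun, stood at -0.26 at 1 h and -0.38 at 2 h on a dim probe with a mean log2 signal of 6.72. Atf3, a stress-induced partner of AP-1, was at 1.12 and 1.24 at 1 h and at 0.37 and 0.52 at 2 h, a change of -0.74 ± 0.020.

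Nr4a2, the close relative of Nr4a1, was at 0.58 and 0.84 at 1 h and at -0.06 and 0.10 at 2 h. Its change was -0.69 ± 0.051, and the third member of the family, Nr4a3, was at 0.02 at 1 h and 0.07 at 2 h. The basic helix-loop-helix repressor Bhlhe40, a regulator of the circadian clock, was at 1.00 and 1.18 at 1 h and at 0.03 and 0.13 at 2 h (-1.01 ± 0.036). The dominant-negative helix-loop-helix proteins differed among themselves. Id1 (-0.59) and Id2 (-0.36) passed 1.25-fold, Id3 was at -0.29 and Id4 at 0.15, and Id4 was the 1 list member above 0 in both orientations. Id4 stood lowest of the list at 1 h (-1.09) and was still at -0.94 at 2 h. The change was -0.01 for Myc and -0.11 for Srf, the serum response factor.

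**Figure D2:**
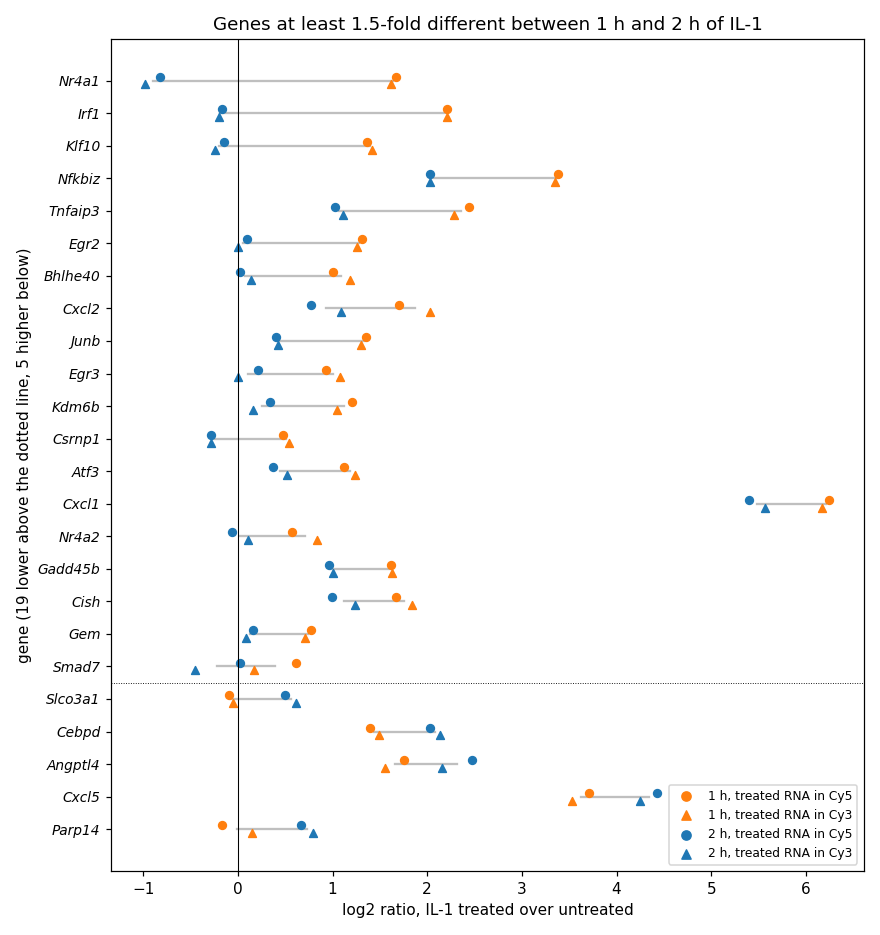
Log2 ratio of IL-1 treated over untreated signal on each array for the 24 called genes, with 1 h in orange, 2 h in blue, circles for treated RNA in Cy5 and triangles for treated RNA in Cy3. In each of the 19 upper rows both 2 h points lie left of the 1 h point of the same shape, and in the 5 lower rows they lie right of it.

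The promoters of the 3 genes with the largest decrease among those with a listed promoter are shown with the one of Serpina3g, which had the largest increase among the genes at least 1.25-fold higher with a listed promoter. They are RefSeq windows of GRCm38.p6, from 250 bases before the start of transcription to 50 after it, 5′ to 3′ in the direction of transcription. Capitals mark a match, on either strand, to one of 6 motifs. These were NF-kB (GGG, any 3 bases, TTCC), AP-1 (TGANTCA), the cAMP response element (TGACGTCA), EGR (GCGNGGGCG), the CArG box (CC, 6 bases of A or T, GG) and the core of the interferon-stimulated element (TTTC, any 2 bases, TTTC). The windows are Nr4a1 at chr15:101266596-101266895 (+ strand), Irf1 at chr11:53769764-53770063 (+ strand, the first of 2 listed starts), Tnfaip3 at chr10:19015361-19015660 (- strand, the first of 2) and Serpina3g at chr12:104235897-104236196 (+ strand).
Nr4a1: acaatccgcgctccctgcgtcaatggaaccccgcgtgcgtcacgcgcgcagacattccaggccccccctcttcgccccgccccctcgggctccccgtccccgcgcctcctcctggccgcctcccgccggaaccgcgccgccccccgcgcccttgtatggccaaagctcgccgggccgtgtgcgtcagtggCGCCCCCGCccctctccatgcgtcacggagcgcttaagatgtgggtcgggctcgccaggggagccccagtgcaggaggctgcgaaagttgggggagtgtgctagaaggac
Irf1: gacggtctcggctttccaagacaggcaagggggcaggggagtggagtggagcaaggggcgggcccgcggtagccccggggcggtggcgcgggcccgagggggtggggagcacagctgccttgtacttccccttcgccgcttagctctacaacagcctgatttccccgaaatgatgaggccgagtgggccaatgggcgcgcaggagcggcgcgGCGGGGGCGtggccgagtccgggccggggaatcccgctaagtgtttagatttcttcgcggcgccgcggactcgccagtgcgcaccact
Tnfaip3: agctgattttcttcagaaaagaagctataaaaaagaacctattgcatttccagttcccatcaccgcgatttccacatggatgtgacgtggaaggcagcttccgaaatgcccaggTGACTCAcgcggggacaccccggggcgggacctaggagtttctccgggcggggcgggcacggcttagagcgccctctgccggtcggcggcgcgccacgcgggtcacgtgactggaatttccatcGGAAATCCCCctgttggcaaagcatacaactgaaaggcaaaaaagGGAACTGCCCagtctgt
Serpina3g: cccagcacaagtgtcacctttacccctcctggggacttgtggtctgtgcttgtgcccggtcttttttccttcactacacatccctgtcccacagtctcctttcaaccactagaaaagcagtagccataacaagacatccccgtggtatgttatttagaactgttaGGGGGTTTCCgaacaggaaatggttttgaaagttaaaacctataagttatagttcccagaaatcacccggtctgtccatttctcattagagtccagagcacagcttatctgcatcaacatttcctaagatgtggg
The Nr4a1 and Irf1 windows each hold 1 EGR match, the Tnfaip3 window holds 2 NF-kB matches and 1 AP-1 match, and the Serpina3g window holds 1 NF-kB match. Vegfc and Cdk6, next in increase, are not printed, and their windows hold 1 EGR match and no match, respectively. Each motif was searched as the exact pattern given, so other forms of a site are not counted. The stretch ggggaatccc of the Irf1 window, for one, falls outside the NF-kB pattern.

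Of the 19 lower genes 12 had a listed promoter, and of the 5 higher genes 0. The NF-kB motif was in 3 of the 12 (25.0%), those of Cxcl1, Cxcl2 and Tnfaip3, against 5.65% of the 13090 measured genes with a promoter and 5.52% of all 27025. The EGR motif was in 4 of the 12 (33.3%), those of Gadd45b, Irf1, Nr4a1 and Nr4a2, against 9.19% of measured genes and 5.55% of all. At 1.25-fold the NF-kB motif was in 6 of 41 lower genes (14.6%) and in 4 of 24 higher genes (16.7%), the latter being Bcl6, Cxcl3, Il6 and Serpina3g. The EGR motif was in 8 of the 41 (19.5%) and 1 of the 24 (4.17%). The AP-1 motif was in 1 of the 41 (2.44%) and 3 of the 24 (12.5%), against 6.18% of measured genes and 7.93% of all. The cAMP response element was in 2 of the 41 (4.88%) and 0 of the 24, against 2.83% and 1.88%. The interferon-stimulated core was in 4 (9.76%) and 1 (4.17%), against 3.06% and 3.49%, and the CArG box in 0 of either, against 1.40% and 1.57%. A match is a description of the letters and not of a bound site, and these shares were not tested. They count exact matches to the patterns only.

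Among the NF-kB subunits, inhibitors and regulators 2 of 25 measured genes were lower and 0 higher, and the median change was 0.03. For this and the lists below, the shares over all genes were 0.091% lower and 0.024% higher. Nfkbiz, which encodes the nuclear cofactor IkB-zeta, was at 3.38 and 3.35 at 1 h and at 2.03 on both arrays at 2 h, a change of -1.34 ± 0.018 (2.53-fold). Tnfaip3 (A20), a ubiquitin-editing inhibitor of the pathway, was at 2.44 and 2.28 at 1 h and at 1.03 and 1.11 at 2 h (-1.29 ± 0.12, 2.45-fold). Both stayed above the untreated level on all 4 arrays. Nfkbia, the inhibitor IkB-alpha that NF-kB itself induces, was at 2.97 and 3.07 at 1 h and at 2.48 and 2.82 at 2 h. Its change of -0.37 ± 0.12 passed neither size in both orientations. The inhibitor of apoptosis Birc3 was lower by 1.25-fold (-0.50), with a second probe at 0.08, and the IkB family member Bcl3 was at -0.22.

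The subunits Relb, Nfkb2 and Rela passed neither size. Relb had ratios of 2.01 and 2.06, a change of 0.05, and the change was 0.12 for Nfkb2 and -0.01 for Rela. Nfkb1 was the one member higher at 1.25-fold, at 0.38 for its brightest probe, but its probes went against each other. A pair of dimmer Nfkb1 probes gave -0.51 and -0.50, and another gave 0.01. No direction is therefore given for Nfkb1. The IL-1, Toll and TNF receptors and adaptors, 35 measured, held 0 called genes, with Il1r1 at 0.14 and Myd88 at 0.02. The kinase Ripk2 was the 1 member of that list higher at 1.25-fold (0.39 ± 0.016).

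The chemokines divided. Of 24 measured, Cxcl1 and Cxcl2 were lower and Cxcl5 was higher, though all 3 bind the neutrophil receptor Cxcr2. Of all genes 0.091% were lower and 0.024% higher. Cxcl1 was at 6.25 and 6.17 at 1 h and at 5.40 and 5.57 at 2 h, a change of -0.72 ± 0.12 (1.65-fold) from the highest ratio among the called genes. Cxcl2 was at 1.70 and 2.03 at 1 h and at 0.77 and 1.09 at 2 h (-0.94 ± 0.0063, 1.91-fold). Cxcl5 was at 3.71 and 3.53 at 1 h and at 4.43 and 4.25 at 2 h (0.72 ± 0.0013, 1.65-fold higher), and its 2 h values lay above both 1 h values. Cxcl3, another ligand of the same receptor, was at 1.47 and 1.71 at 1 h and 1.87 and 2.28 at 2 h, a change of 0.49 that passed 1.25-fold. The monocyte chemokines Ccl2 (-0.18) and Ccl7 (-0.03) and the Ccr6 ligand Ccl20 (-0.14) differed by less than either size, with Ccl2 saturated on 2 of the 4 arrays. The eosinophil chemokine Ccl11 changed by 0.42 with a dim probe (mean log2 signal 6.35).

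Of 47 measured cytokines and growth factors 1 was called, and it was higher, where 0.024% of all genes were higher. Angptl4, an inhibitor of lipoprotein lipase, was at 1.75 and 1.56 at 1 h and at 2.47 and 2.16 at 2 h, a change of 0.66 ± 0.061 (1.58-fold). Vegfc, a growth factor of lymphatic vessels, was at 0.25 and 0.26 at 1 h and at 0.81 and 0.84 at 2 h, and at 0.57 ± 0.0083 lay just outside the rule. Il6 was at 2.59 and 2.44 at 1 h and at 2.94 and 2.99 at 2 h (0.45 ± 0.10). Both were higher by the 1.25-fold rule. On the same list Csf2 (-0.41) and the EGF receptor ligand Hbegf (-0.41) were lower by that rule. The untreated channel of Csf2 was well above background on 1 of 4 arrays, and that of Csf3 (0.02) on 0 of 4, so the untreated level in these ratios is close to background.

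On the list named later transcription factors, 30 measured, Irf1 and Cebpd were called, and they moved in opposite directions. The name is a label and not a timing seen here, since Irf1 (2.21) and Cebpd (1.44) were already above untreated cells at 1 h. Cebpd, a C/EBP factor of the acute phase response, was at 1.39 and 1.49 at 1 h and at 2.03 and 2.14 at 2 h (0.64 ± 0.010, 1.56-fold higher). Cebpb, its relative, had ratios of 1.20 and 1.17, a change of -0.03. The mesenchymal factors Snai1 and Snai2 differed in direction, and both passed 1.25-fold only. Snai1 was at 0.59 at 1 h and 0.11 at 2 h (-0.48), and Snai2 was at -1.01 and -0.55 (0.46). Bcl6, a transcriptional repressor, was higher by that rule (0.48) and Ets1 lower (-0.38).

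The remaining called genes that were lower act in signalling, chromatin and growth arrest. Kdm6b (JMJD3), which removes methyl groups from histone H3 lysine 27, was at 1.20 and 1.05 at 1 h and at 0.34 and 0.16 at 2 h (-0.88 ± 0.017), and the other 16 measured chromatin enzymes held 0 called genes. Gadd45b, a growth arrest and DNA damage gene, was at 1.62 and 1.63 at 1 h and at 0.96 and 1.01 at 2 h (-0.64 ± 0.018). Its second probe gave -0.41. Cish, a SOCS-family inhibitor of cytokine receptors, was at 1.67 and 1.84 at 1 h and at 1.00 and 1.24 at 2 h (-0.64 ± 0.036), and of its relatives Socs1 was lower at 1.25-fold (-0.53) and Socs3 was at -0.25. The small GTPase Gem was at 0.77 and 0.71 at 1 h and at 0.16 and 0.08 at 2 h (-0.62 ± 0.0073).

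Csrnp1, a nuclear protein, was at 0.47 and 0.54 at 1 h and at -0.28 and -0.29 at 2 h (-0.79 ± 0.033), while its other probes gave 0.03 and -0.25. Smad7, the inhibitory SMAD of TGF-beta signalling, was at 0.62 and 0.16 at 1 h and at 0.02 and -0.45 at 2 h. Both 2 h values lay below both 1 h values, but the orientations stood nearly as far apart as the times, and the change was -0.60 and -0.62 in the 2 orientations. In the treated channel alone the direction was reversed (0.12), and the untreated channel was higher on the 2 h arrays (0.73). Smad7 (-0.61) and Cxcl1 were the genes just inside the rule on the lower side, and Ankrd1 (-0.60), Id1 and the kinase Sik1 (-0.61) were among those just outside it. On the higher side Slco3a1 and Angptl4 were just inside, and Vegfc and the transcript AK041395 (0.56) just outside.

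Parp14, a mono-ADP-ribosyltransferase, was at -0.17 and 0.15 at 1 h and at 0.66 and 0.79 at 2 h. It was at the untreated level at 1 h and above it on both 2 h arrays, a change of 0.73 ± 0.096 (1.66-fold). Slco3a1, an organic anion transporter, was at -0.09 and -0.06 at 1 h and at 0.50 and 0.61 at 2 h (0.63 ± 0.038, 1.55-fold). These were the called genes with no elevation at 1 h, whereas Cxcl5, Angptl4 and Cebpd were already above the untreated level by at least 1.5-fold.

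Of 26 measured interferon-stimulated and antigen presentation genes 0 were called, but the change was above 0 in both orientations for 17 and below 0 in both for 2, with a median of 0.12. Over all genes 27.6% were above 0 in both orientations. Plscr1 (0.46 ± 0.026) and the immunoproteasome subunit Psmb8 (0.39 ± 0.016) passed 1.25-fold, where 0.177% of all genes did. The interferon-induced GTPase Gbp2 (0.35) and the caspase Casp4 (0.42) were above 0 in both orientations without passing 1.25-fold in both, whereas Ifit2 (-0.07), Mx1 (-0.02) and Rsad2 (-0.02), induced by type I interferon, stood near 0. This list has no test of its own.

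Other groups held few calls. Of 23 adhesion molecules 0 were called at either size, with Icam1 at 0.10, from ratios of 2.34 and 2.44, and Vcam1 at 0.13. Of 29 matrix proteases and inhibitors 0 were called. The protease inhibitor Serpina3g was at 1.29 and 1.24 at 1 h and at 1.76 and 2.04 at 2 h, an average of 0.63 ± 0.17 that reached 1.5-fold in 1 orientation, and the aggrecanase Adamts5 was lower by 1.25-fold (-0.43). Of 31 fibroblast matrix genes 0 were called, and the hyaluronan synthase Has1 (-0.35) passed the smaller size. Of 22 prostaglandin, nitric oxide and steroid enzymes the receptor Ptger2 was higher at that size (0.43), and Ptgs2, the inducible cyclooxygenase, was at 0.12. Acute-phase and complement genes, 12 measured, held 0 at either size.

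Genes whose products end signalling or mRNA life were mixed. Of 18 MAP kinase phosphatases and receptor-kinase inhibitors 0 were called, with Errfi1 (-0.45) lower and Dusp10 (0.41) and Lrig1 (0.40) higher at 1.25-fold, and Dusp1 at -0.23. Of 18 mRNA decay regulators the deadenylase cofactor Btg2 (-0.56) was lower at that size, while Zfp36 (tristetraprolin), which binds AU-rich elements, was at -0.26 and the endonuclease Zc3h12a at 0.03. Of 29 stress and growth arrest genes Gadd45b was called and Ier3 (-0.51) was lower at the smaller size.

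**Figure D3:**
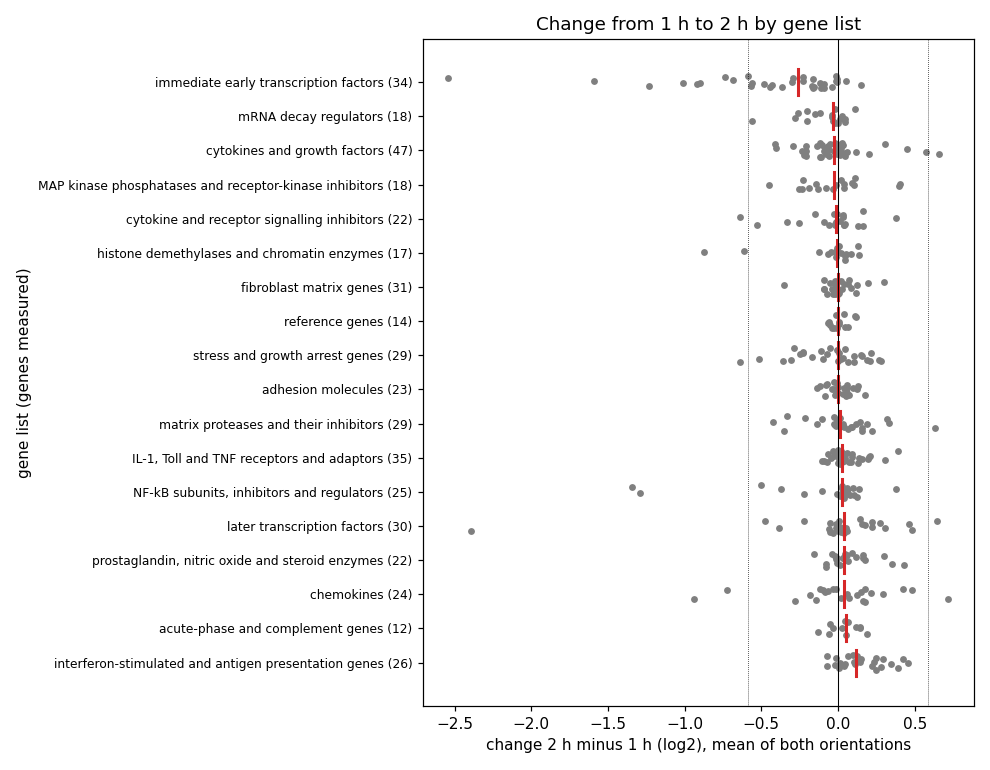
Change from 1 h to 2 h (log2, mean of both orientations) for each measured gene of the lists shown, 1 point per gene, with the list median in red, dotted lines at 1.5-fold and the number of genes in parentheses. The immediate early transcription factors have the lowest median (-0.26) and the interferon-stimulated and antigen presentation genes the highest (0.12).

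The 1 h ratio is part of the rule, so the levels of the called genes at each time are a description. All 19 had an average ratio above 0 at 1 h, and 17 were at least 1.5-fold above; the exceptions were Csrnp1 (0.50) and Smad7 (0.39). Of all genes 52.3% were above 0 at 1 h and 0.575% at least 1.5-fold above. At 2 h 10 of the 19 stood within 0.3 of 0, and 4 were below 0 in both orientations. Of the 64 genes lower at 1.25-fold, 58 were above 0 at 1 h, 36 of them by at least 1.5-fold, and 37 stood within 0.3 of 0 at 2 h. Those with a ratio below 0 at 1 h included Hes1 (-0.07 to -0.55), a Notch target, and Adamts5 (-0.33 to -0.76). Of the 37 higher genes 26 were above 0 at 1 h, and 36 were above 0 at 2 h, the exception being Snai2.

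The 4 h arrays were compared with the same untreated condition, and the change from 2 h to 4 h shares the 2 h sample with the change from 1 h to 2 h, so the values are given side by side only. In both orientations, 13 of the 19 lower genes had a still lower ratio at 4 h and 5 had a higher one. The share of all genes lower or higher at 4 h was not computed, so these counts do not set the called genes apart. The ratio of Nr4a1 was -0.90 at 2 h and -0.53 at 4 h, and that of Irf1 was -0.18 and -0.07. Nfkbiz was at 1.18 at 4 h, Tnfaip3 at 0.35, Cxcl1 at 4.84 and Cish at 0.16. Of the 5 higher genes, Cxcl5 (4.71) and Slco3a1 (0.81) exceeded their 2 h ratios at 4 h in both orientations, and Cebpd (1.23), Angptl4 (1.89) and Parp14 (0.19) were below them. Outside the rule, Serpina3g was at 2.55 and Vegfc at 1.36 at 4 h.

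**Figure D4:**
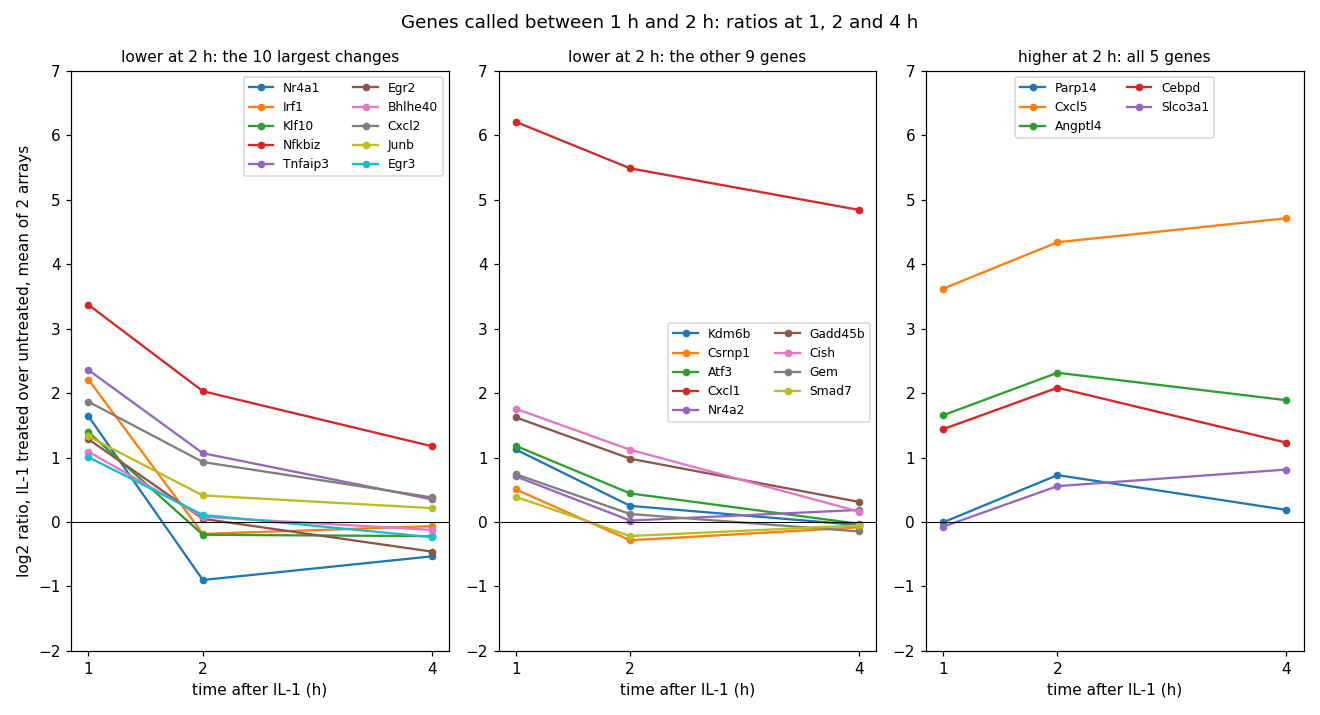
Average log2 ratio of IL-1 treated over untreated signal (2 arrays per point) at 1, 2 and 4 h for the 24 called genes. Cxcl1 stays the highest of the lower genes (6.21, 5.49 and 4.84), Nr4a1 passes below 0, and Cxcl5 is highest at 4 h (4.71).

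A change of a ratio can come from either channel, so each channel was also normalised across arrays and compared alone. Both untreated channels were labelled as 0 h cells, yet 260 genes (1.25%) were at least 1.5-fold higher there on the 2 h arrays than on the 1 h arrays, and 3 (0.0144%) were lower. The treated channel alone had 279 genes at least 1.5-fold higher and 21 lower. Of the 279, 247 were also higher in the untreated one. For these 247 the change of the ratio had a median of 0.01 and lay between -0.23 and 0.38, with 0 called at 1.5-fold and 1, Nfkb1, at 1.25-fold. Of the 19 lower genes 13 were also lower by 1.5-fold in the treated channel alone, and 18 were below 0 there in both orientations. Nr4a1 was at -2.57 in the treated and -0.03 in the untreated channel, and Irf1 at -2.45 and -0.06. The exception was Smad7. Gadd45b, at -0.36 and 0.29, and Id1, at -0.13 and 0.46, also drew on both channels, and so did Nfkb1, at 1.07 and 0.69. Of the 5 higher genes 4 passed 1.5-fold in the treated channel, and Angptl4 was at 0.55 there.

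**Figure D5:**
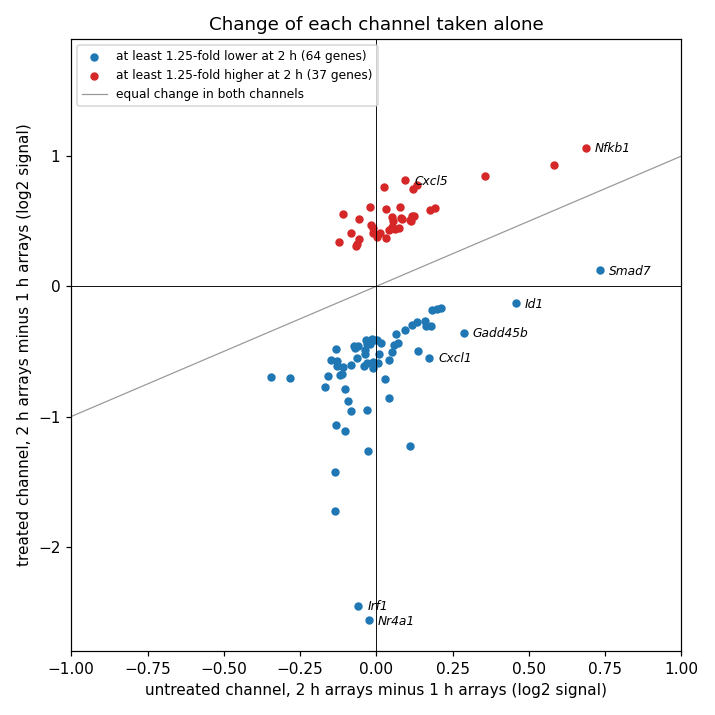
Difference in log2 signal between the 2 h and 1 h arrays in the untreated channel (x axis) and the treated channel (y axis), mean of both orientations, for the 64 genes lower (blue) and 37 genes higher (red) by at least 1.25-fold. Most points lie near 0 on the x axis, and Smad7 (0.73, 0.12) is the called lower gene above 0 on the y axis.

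The size of the change of dim genes depended on the processing. Local background lay at 50 to 55, below the negative controls at 96.3 to 104.4 in Cy3 and 68.4 to 74.1 in Cy5, and the offset of 50 pulls ratios of dim probes towards 0. With the scanner's own processed signals, which differ in background subtraction and in dye normalization, all 24 called genes were called again in the same direction. The change was -1.76 in place of -0.90 for Egr3, -1.30 in place of -0.62 for Gem, -1.20 in place of -0.74 for Atf3 and 1.35 in place of 0.73 for Parp14. For the brighter Nr4a1 it was -2.62 in place of -2.54.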

How the data were processed

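Agilent 2-colour arrays were read with Feature Extraction 7.5.1, per the file headers, and the deposited intensity columns hold each spot's mean signal, local background and processed signal. The authors' value table is on a log2 scale. Within a tolerance of 0.001, 100% of the spots in each column match the processed ratios of its dye-swap partner and not of its own array, so table and scanner files are exchanged within each pair. Directions were taken from the labelled dyes. With these the IL-1 targets Cxcl1 (6.21), Nfkbia (3.02) and Il6 (2.51) stood above untreated cells at 1 h, and the opposite assignment would place all 3 below.

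Of 43790 spots per array, 2256 controls and all outlier flags were left out. Background was corrected by normexp (offset 50) on mean signals, followed by loess within arrays (limma 3.58.1, R 4.3.3). Single channels were also scaled by Aquantile. Of 41174 probes, 29905 were well above background in the treated channel on both arrays of 1 h or of 2 h, and had values at both times. Probes bright in the untreated channel only were therefore left out. The brightest kept probe stood for a gene; 6524 genes had several, and 16457 of 20873 had a current symbol (8596 probes kept the file's name only). Names came from the RefSeq gene table of GRCm38.p6. Members and gene lists were chosen with earlier results of these data known. Genes named by rule are the 15 lowest and 15 highest called, called list members, those nearest the threshold and textbook IL-1 targets, and other list members named to describe a family were chosen after their values were seen. No p-value is given, since each time point is 1 sample. Alternatives covered the background correction, offset, normalization, single channels, filters, probe averaging, saturated probes, the value table and each orientation alone.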

Additional observations from a re-analysis of the deposited data

How the results depend on the processing

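No paired analysis was possible because each time point is 1 sample and no test was run; the change was already taken within each orientation. The 19 lower and 5 higher genes at 1.5-fold kept their direction under all 12 alternatives, with 1 exception: Smad7 was at 0.12 in the treated channels alone. Several alternatives could not reverse a call. Each orientation alone is part of the rule, and the filters and saturation left the probes of these genes in place. The value table repeats the processed signals, so it is not a further check. The lower count ranged from 13 without background correction to 28 with an offset of 16, apart from 70 with processed signals or the authors' value table, which hold the same values. The higher count was 56 with either of these, 9 with an offset of 16, 3 without background correction, 2 with median centring in place of loess and 279 in the treated channels alone. At 2-fold, processed signals and the value table gave 13 lower and 3 higher genes, and the treated channels gave 96 higher. Without background correction Parp14, Slco3a1, Cish, Cxcl1, Egr3, Gem, Nr4a2 and Smad7 no longer passed 1.5-fold, and with median centring Cebpd, Parp14, Slco3a1, Cish, Cxcl1 and Gem did not. In the mean over probes Csrnp1, Egr3 and Gadd45b did not pass. At 1.25-fold, processed signals and the value table gave 306 higher and 342 lower genes. The counts were 82 and 99 with an offset of 16, and 615 and 101 in the treated channels. Median centring gave 22 higher. On single orientations the counts ran from 5 to 8 higher and 23 to 26 lower at 1.5-fold, 0 to 1 higher and 6 to 8 lower at 2-fold, and 76 to 97 higher and 90 to 122 lower at 1.25-fold. The filter on dim probes and saturation left the 1.5-fold counts at 19 and 5. The processed signals differ in both background subtraction and normalization, and the cause of these differences was not tested.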
